A study of Mus musculus with 6 samples.

Results

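The 41 genes described here are 30 immediate early genes and 11 heat shock genes, chosen by name, and all 41 were found among the 32285 genes of the deposited count matrices. The immediate early genes were Fos, Fosb, Fosl2, Jun, Junb, Jund and Atf3 (AP-1 subunits and a partner), Egr1, Egr2 and Egr3 (zinc finger factors), Nr4a1, Nr4a2 and Nr4a3 (orphan nuclear receptors), Klf4 and Klf6 (Krüppel-like factors), Ier2, Ier3 and Ier5, Btg1 and Btg2 (antiproliferative genes), Dusp1, Dusp2 and Dusp5 (MAP kinase phosphatases), Zfp36 and Zfp36l1 (proteins that bind AU-rich mRNA and speed its decay), Nfkbia and Nfkbiz (NF-κB regulators), Gadd45b, Rhob and Ppp1r15a. The heat shock genes were the Hsp70 genes Hspa1a, Hspa1b and Hspa8, the Hsp110 gene Hsph1, the Hsp90 gene Hsp90aa1, the J-domain co-chaperones Dnaja1, Dnajb1 and Dnajb4, the small heat shock gene Hspb1, and the mitochondrial chaperonin pair Hspd1 and Hspe1. The UMIs of the members were summed per sample within 8 lineages (T cells, NK cells, B cells, macrophages, monocytes, neutrophils, dendritic cells [DCs] and melanoma cells), with the immediate early and the heat shock genes kept apart.

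The samples were 6 single-cell RNA-seq libraries of CD45-enriched cells from B16F10 tumors, a transplantable mouse melanoma line, grown in female C57BL/6 mice of 6 to 10 weeks. Of these, 3 came from mice treated with αPD-1, an antibody against the T cell checkpoint receptor PD-1, at 150 µg per mouse 3 times a week from day 7, and 3 came from mice that received the same antibody with corin, an inhibitor of the LSD1 and HDAC enzymes of the CoREST complex, at 200 µg per mouse every day from day 6. All 6 samples therefore carried αPD-1, and no untreated tumor or corin-only tumor entered a comparison here. Each arm held 10 mice, and how they correspond to the sequenced samples is not stated, so the p-values below measure the spread between 3 samples per group, whatever their source. Tumors were digested with enzymes for 20 min to 1 h, frozen, thawed and passed over dead cell removal and CD45 MicroBeads before capture, and the time for each tumor was not given in the sources used here.

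Immediate early genes are transcribed within minutes of a signal, without new protein synthesis, because the factors that drive them (SRF with its ETS partners, CREB and NF-κB) are already in the cell and are switched on by MAP kinases and other kinases. Many of their products then shut the same signal off, as the DUSP phosphatases, Nfkbia and Zfp36 do. Heat shock genes are driven mainly by HSF1, which binds repeats of the short unit nGAAn once unfolded protein draws chaperones away from it, and their products refold or hold damaged protein. Both families are also well known to be switched on while solid tissue is cut and digested into single cells.

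The promoter sequences show which of these drivers could have left their letters upstream of the members. RefSeq windows of 250 bases before to 50 bases after the start (GRCm38.p6, 32851 windows) matched 35 of the 41 members, and Ier2, Nfkbiz, Egr1, Egr3, Hspa8 and Hsp90aa1 had none. A pair of heat shock units head to head or tail to tail (GAANNTTC or TTCNNGAA, both strands) was present in 8 of the 9 matched heat shock genes, the exception being Dnajb1, and in 3 of the 26 matched immediate early genes (Egr2, Fosl2 and Jun), against 15.1% of all windows. A run of 3 alternating units, which contains the paired form, was found in Hspd1, Hspe1 and Hsph1 and in 0.603% of all windows. The cyclic AMP response element TGACGTCA was present in Btg2, Dusp1 and Ppp1r15a (1.79% of all), the AP-1 site TGANTCA in Zfp36l1 (7.81%), the CArG box bound by SRF in Dusp5, Egr2 and Zfp36 (1.63%), and the kappaB site in Egr2, Fos, Fosb, Fosl2, Ier3, Nfkbia and Nr4a1 and in Hspd1 and Hspe1 (6.93%). A match is a description of the letters and not a mapped binding site. The 10 stretches of 80 bases below belong to members on which the results turn, and the capitals mark the motif named with each; distances are counted back from the transcription start.
Hspa1a, paired heat shock units, GRCm38.p6 chr17:34972217-34972296, minus strand, 140 to 61 bases before the start: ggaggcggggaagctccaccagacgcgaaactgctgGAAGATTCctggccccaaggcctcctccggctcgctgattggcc
Hspa1b, paired heat shock units, GRCm38.p6 chr17:34959299-34959378, minus strand, 140 to 61 bases before the start: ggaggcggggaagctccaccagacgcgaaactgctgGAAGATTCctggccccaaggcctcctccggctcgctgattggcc
Hspe1, 2 overlapping runs of 3 heat shock units, GRCm38.p6 chr1:55088028-55088107, plus strand, 120 to 41 bases before the start: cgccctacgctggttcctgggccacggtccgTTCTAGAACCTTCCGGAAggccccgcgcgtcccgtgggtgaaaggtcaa
Hspb1, paired heat shock units, GRCm38.p6 chr5:135887776-135887855, plus strand, 143 to 64 bases before the start: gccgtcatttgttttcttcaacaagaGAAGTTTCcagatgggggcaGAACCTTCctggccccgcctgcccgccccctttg
Dnaja1, paired heat shock units, GRCm38.p6 chr4:40722308-40722387, plus strand, 160 to 81 bases before the start: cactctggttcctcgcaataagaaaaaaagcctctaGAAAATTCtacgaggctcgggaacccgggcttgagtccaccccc
Jun, paired heat shock units, GRCm38.p6 chr4:95052307-95052386, minus strand, 164 to 85 bases before the start: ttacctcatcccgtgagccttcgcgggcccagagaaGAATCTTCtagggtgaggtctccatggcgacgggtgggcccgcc
Ppp1r15a, cyclic AMP response element, GRCm38.p6 chr7:45526269-45526348, minus strand, 80 to 1 bases before the start: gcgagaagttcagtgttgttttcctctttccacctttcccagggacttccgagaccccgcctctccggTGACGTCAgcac
Btg2, cyclic AMP response element, GRCm38.p6 chr1:134079278-134079357, minus strand, 202 to 123 bases before the start: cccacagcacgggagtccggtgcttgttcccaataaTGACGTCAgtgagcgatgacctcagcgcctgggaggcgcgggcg
Dusp5, CArG box, GRCm38.p6 chr19:53529033-53529112, plus strand, 112 to 33 bases before the start: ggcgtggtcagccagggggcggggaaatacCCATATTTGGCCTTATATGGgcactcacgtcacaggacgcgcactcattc
Nfkbia, kappaB site, GRCm38.p6 chr12:55492648-55492727, minus strand, 80 to 1 bases before the start: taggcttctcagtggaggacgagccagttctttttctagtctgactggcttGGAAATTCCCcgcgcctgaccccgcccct

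Hspa1a and Hspa1b, the inducible Hsp70 genes, lie next to each other on chromosome 17 (GRCm39 chr17:35188166-35191132, minus strand, and chr17:35175412-35178214, minus strand). Their printed stretches were identical at 80 of 80 bases and their whole windows at 296 of 300 bases, and their coding parts are near copies as well, so how reads were divided between this pair is uncertain and their values are best read together. The heat shock pair Hspd1 and Hspe1 (GRCm39 chr1:55116989-55171038, minus strand, and chr1:55127260-55130476, plus strand) lie on opposite strands of the same stretch of chromosome 1.

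After filtering, 24428 cells were assigned to the 8 lineages from marker genes: 3758 T, 444 NK, 2692 B, 9581 macrophage, 1627 monocyte, 2350 neutrophil, 2091 DC and 1885 melanoma cells. The 6 libraries held 6433 to 13228 barcodes and 52281422 to 84276739 UMIs each, and a sample's sum over a lineage rested on 12 to 4394 cells and 23300 to 16625652 UMIs. Libraries shared 10 to 32 barcodes per pair, at most 0.457% of the smaller library. Every marker of each lineage was detected in its sums. Some sums were small or mixed: B cells numbered 724 to 1077 per αPD-1 sample but 50, 49 and 12 in the αPD-1 + corin samples, and neutrophils numbered 22, 18 and 20 in the αPD-1 samples, where B cell markers summed to 898 to 3692 CPM against 24.8 to 238 CPM with αPD-1 + corin. The T cell sums differed in the nuclear RNA Malat1, at 7182 to 9037 CPM with αPD-1 and 3908 to 4077 CPM with αPD-1 + corin. B cell sums with αPD-1 + corin held neutrophil markers at 832, 983 and 0 CPM, against 25.3 to 35.4 CPM with αPD-1, and a median mitochondrial share of 3.34 to 3.59% against 2.35 to 2.83%, without overlap. Neutrophil markers were also higher with αPD-1 + corin, without overlap, in the sums of T cells, macrophages, monocytes, DCs and melanoma cells (in monocytes, 473 to 1037 CPM against 173 to 239 CPM). The part of these marker and mitochondrial differences in the results below was not tested. With 12 cells drawn from every B cell sample, 0 heat shock genes were called by edgeR in B cells, where 10 were called with all cells; 8 of the 11 and 319 genes in all were then tested, and 3.13% of these were called. With the clusters that were rich in Malat1 and poor in Actb left out, an alternative chosen after seeing the data, the heat shock calls numbered 6 in T cells and 10 in B cells, the same as with them.

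The summed heat shock genes were lower with αPD-1 + corin than with αPD-1 in each of the 7 immune lineages and not in melanoma cells, whereas the summed immediate early genes overlapped between groups in all lineages but monocytes. Levels are given as CPM, the UMIs of the genes scaled to a common total of UMIs per sum, mean ± SD of 3 samples. In monocytes the heat shock sum was 10247 ± 1748 CPM with αPD-1 and 4221 ± 1789 CPM with αPD-1 + corin, a ratio of 0.412. In macrophages, the most numerous lineage, it was 4713 ± 602 CPM with αPD-1 and 2804 ± 747 CPM with αPD-1 + corin, a ratio of 0.595. B cells showed the lowest ratio, 0.406, with 17388 ± 2160.1 CPM with αPD-1 and 7059 ± 5042 CPM with αPD-1 + corin. The other ratios were 0.45 in NK cells, 0.427 in neutrophils, 0.514 in DCs and 0.596 in T cells. The groups did not overlap in 6 of these 7 lineages; in T cells the highest αPD-1 + corin sample (6908 CPM) exceeded the lowest αPD-1 sample (6602 CPM). Melanoma cells held 5713 ± 717 CPM with αPD-1 and 5691 ± 449 CPM with αPD-1 + corin, a ratio of 0.996. These sums rested on 123, 84 and 167 cells with αPD-1 and 622, 316 and 573 with αPD-1 + corin. Without the upper limit of 4000 genes per cell, 734, 461 and 1130 and 1800, 1361 and 1774 cells were assigned to melanoma. The melanoma ratio therefore describes the cells under that limit, and the ratio without it is not given here. The T cell sums were made of different cells in the groups, since the clusters led by Igfbp4, Dapl1 and Ccr7 and by Auts2, Rapgef4 and Aff3 together held 1038 of the 2161 T cells with αPD-1 and 38 of the 1597 with αPD-1 + corin; ratios within single clusters are given further on.

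For the immediate early sum the ratios lay between 0.77 (monocytes) and 0.978 (melanoma cells), and among these lineage sums monocytes alone were without overlap. The neutrophil sums held 2 clusters in unlike shares. In the S100a8 and Asprv1 cluster the ratio was 0.836, without overlap, on 20, 14 and 20 cells with αPD-1. It held 24094, 25669 and 22715 CPM with αPD-1 against 18827, 20027 and 21752 CPM with αPD-1 + corin. The S100a9 and Retnlg cluster had 2, 4 and 0 cells with αPD-1 and 93, 487 and 20 with αPD-1 + corin. In those αPD-1 + corin samples it stood at 32615, 39654 and 46316 CPM. Monocytes held 26259 ± 2922 CPM with αPD-1 and 20222 ± 1749 CPM with αPD-1 + corin of immediate early UMIs. Macrophages held 13219.8 ± 1012 CPM with αPD-1 and 12605 ± 1363 CPM with αPD-1 + corin, and T cells 10787 ± 2002 CPM with αPD-1 and 9942 ± 253 CPM with αPD-1 + corin; both pairs overlapped.

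**Figure D1:**
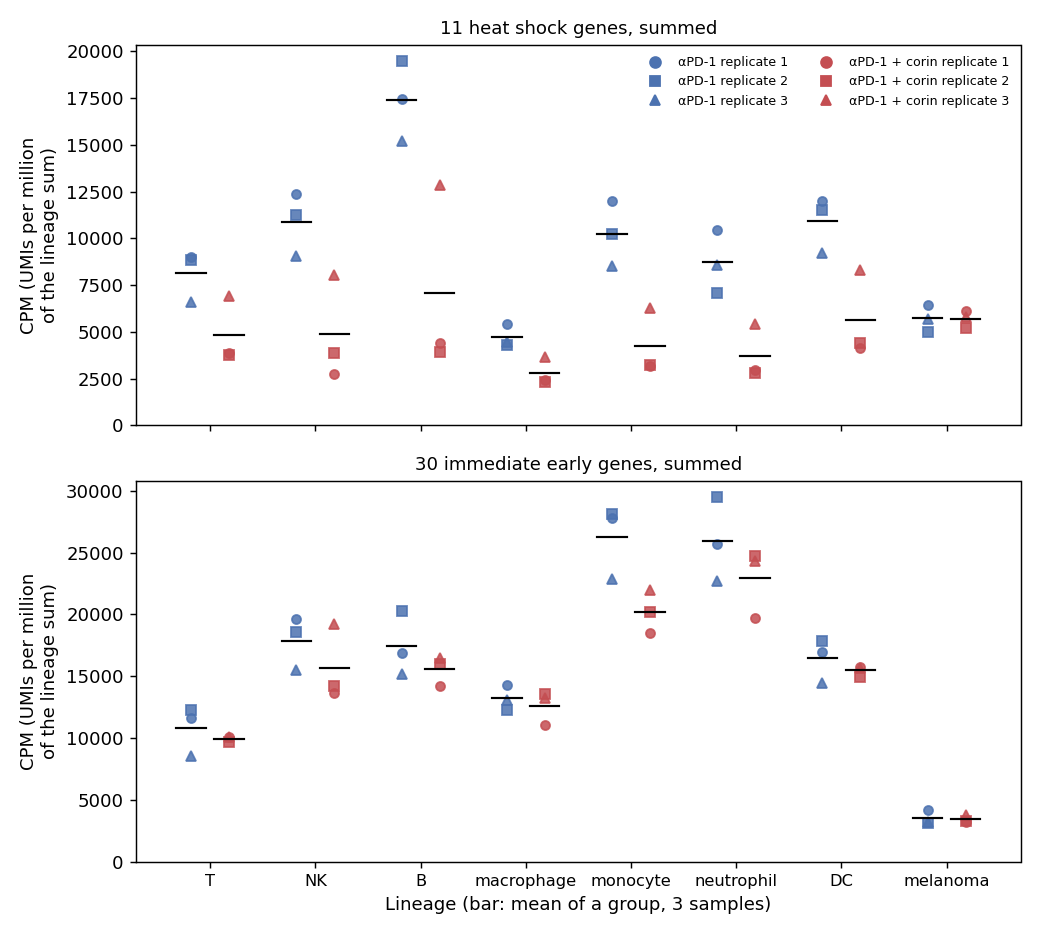
Summed CPM of the 30 immediate early genes and of the 11 heat shock genes in each lineage; points are samples, with the replicate as the symbol, and bars are group means. In the heat shock panel the αPD-1 + corin points lie below the αPD-1 points in 6 of the 7 immune lineages, overlap them in T cells and coincide with them in melanoma cells; in the immediate early panel only monocytes separate.

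One sample set the spread within the αPD-1 + corin group. Its replicate 3 had the highest heat shock sum of its group in 7 of 7 immune lineages, 1.54 times the mean of replicates 1 and 2 in macrophages and 3.10 times in B cells, and it was the highest for 11 of 11 heat shock genes in T cells, NK cells, monocytes and DCs. Relative to the αPD-1 mean, replicates 1 and 2 stood at 0.306 in NK cells, 0.47 in T cells and 0.504 in macrophages, and replicate 3 at 0.739, 0.848 and 0.778. In the αPD-1 group, replicate 3 had the lowest heat shock sum in 5 of 7 immune lineages. Counts of genes are therefore also given without αPD-1 + corin replicate 3, a choice listed with the other replicates left out.

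Of the heat shock genes, Hspa1a was called in the most lineages. A gene was called at an adjusted p under 0.05 in edgeR's quasi-likelihood test, with Benjamini-Hochberg adjustment over all genes tested in that lineage, and fold changes are log2 of αPD-1 + corin over αPD-1 ± SE. Hspa1a was called lower in 5 of 8 lineages, and its groups did not overlap in any of the 8. In T cells it measured 1033, 982 and 830.1 CPM in the αPD-1 sums and 96.0, 97.4 and 468 CPM in the αPD-1 + corin sums (log2 fold change -1.88 ± 0.42, adjusted p = 0.00636). Monocytes had 2814, 2205 and 2099.6 CPM with αPD-1 against 238, 245 and 926 CPM with αPD-1 + corin (log2 fold change -2.29 ± 0.39, adjusted p = 0.013). In both lineages replicates 1 and 2 of the αPD-1 + corin group lay close together and replicate 3 between them and the αPD-1 samples. NK cells had 1734, 1471 and 1055 CPM with αPD-1 against 67.3, 94.8 and 662 CPM with αPD-1 + corin (log2 fold change -2.05 ± 0.36, adjusted p = 0.00641), and B cells 3498, 3533 and 3110.2 CPM with αPD-1 against 312, 335 and 2060.1 CPM with αPD-1 + corin (log2 fold change -2.53 ± 0.21, adjusted p = 2.22e-29). Neutrophils had 1219.5, 1334 and 1755 CPM with αPD-1 against 233, 218 and 575 CPM with αPD-1 + corin (log2 fold change -1.97 ± 0.36, adjusted p = 0.0301). Macrophages were not called, at 978, 671 and 858 CPM with αPD-1 against 195, 196 and 527 CPM with αPD-1 + corin (log2 fold change -1.31 ± 0.37, adjusted p = 0.174), nor were DCs (log2 fold change -1.71 ± 0.35, adjusted p = 0.0905). Melanoma cells had the least Hspa1a, 21.5, 37.2 and 43.8 CPM with αPD-1 against 8.38, 3.98 and 15.3 CPM with αPD-1 + corin (log2 fold change -1.78 ± 0.42, adjusted p = 0.534). The share of all tested genes whose groups did not overlap was 37.0% in T cells, 18.1% in NK cells, 26.5% in B cells, 27.1% in macrophages, 22.3% in monocytes, 19.9% in neutrophils, 17.3% in DCs and 12.6% in melanoma cells.

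Hspa1b, the near copy of Hspa1a, was called lower in 4 lineages. T cells had 904, 902 and 629.8 CPM with αPD-1 against 87.3, 87.9 and 418 CPM with αPD-1 + corin (log2 fold change -1.81 ± 0.42, adjusted p = 0.00812), and NK cells 1399, 1222 and 826 CPM with αPD-1 against 48.1, 44.3 and 619.7 CPM with αPD-1 + corin (log2 fold change -1.92 ± 0.40, adjusted p = 0.017). Its pattern over samples was that of Hspa1a, with replicate 3 the highest of the αPD-1 + corin samples. B cells had 3044, 2968 and 2483 CPM with αPD-1 against 193, 201 and 2232 CPM with αPD-1 + corin (log2 fold change -2.501 ± 0.22, adjusted p = 2.45e-27), monocytes 1869, 1615 and 1357 CPM with αPD-1 against 123, 179 and 572 CPM with αPD-1 + corin (log2 fold change -2.41 ± 0.40, adjusted p = 0.0105). In macrophages it measured 725, 452 and 527 CPM in the αPD-1 sums and 105, 101 and 359.8 CPM in the αPD-1 + corin sums and was not called (log2 fold change -1.46 ± 0.46, adjusted p = 0.201). The constitutive Hsp70 gene Hspa8 (GRCm39 chr9:40711630-40731039, plus strand), which folds new protein in unstressed cells, was called in 1 lineage. In T cells it measured 2074, 2404 and 1670.0 CPM in the αPD-1 sums and 1699.6, 1604 and 2495 CPM in the αPD-1 + corin sums (log2 fold change -0.03 ± 0.19, adjusted p = 0.941), with replicate 3 of the αPD-1 + corin group above all αPD-1 samples. In macrophages it measured 1319, 1259 and 1232 CPM in the αPD-1 sums and 1023, 989 and 1281 CPM in the αPD-1 + corin sums (log2 fold change -0.07 ± 0.15, adjusted p = 0.831). B cells were the lineage where Hspa8 was called, 2591, 3336 and 2336 CPM with αPD-1 against 1278, 1340.1 and 2489 CPM with αPD-1 + corin (log2 fold change -0.91 ± 0.18, adjusted p = 0.000123), and there the groups overlapped.

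Hsph1, an Hsp110 that exchanges nucleotide on Hsp70 (GRCm39 chr5:149537636-149560156, minus strand), was lower without overlap in all 8 lineages and was called in 4. T cells had 776, 616 and 466 CPM with αPD-1 against 114, 147 and 394 CPM with αPD-1 + corin (log2 fold change -1.32 ± 0.33, adjusted p = 0.0122). NK cells had 804, 669 and 624 CPM with αPD-1 against 48.1, 94.8 and 345 CPM with αPD-1 + corin (log2 fold change -1.75 ± 0.30, adjusted p = 0.00641). Monocytes had 372, 258 and 216 CPM with αPD-1 against 48.4, 26.2 and 96.4 CPM with αPD-1 + corin (log2 fold change -2.16 ± 0.30, adjusted p = 0.00437). The monocyte groups lay well apart, and replicate 3 was again the highest with αPD-1 + corin. B cells had 1424, 1559.7 and 1342 CPM with αPD-1 against 282, 156 and 815 CPM with αPD-1 + corin (log2 fold change -2.32 ± 0.23, adjusted p = 4.73e-20), and melanoma cells, not called, 571, 269 and 314 CPM with αPD-1 against 155, 161 and 261 CPM with αPD-1 + corin (log2 fold change -0.98 ± 0.29, adjusted p = 0.652).

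Hsp90aa1, the inducible cytosolic Hsp90 that holds kinases and steroid receptors (GRCm39 chr12:110656842-110669166, minus strand), was called lower in NK cells, B cells and monocytes. NK cells had 2620.4, 2458 and 2046 CPM with αPD-1 against 673, 784 and 1716 CPM with αPD-1 + corin (log2 fold change -1.05 ± 0.21, adjusted p = 0.0107), and B cells 2864, 3324 and 2612 CPM with αPD-1 against 1248, 938 and 2017 CPM with αPD-1 + corin (log2 fold change -1.29 ± 0.18, adjusted p = 1.69e-09). Monocytes had 1964, 1539 and 1328 CPM with αPD-1 against 522, 566 and 846 CPM with αPD-1 + corin (log2 fold change -1.30 ± 0.18, adjusted p = 0.00437). None of these groups overlapped. In T cells the groups overlapped, 1935, 1884 and 1482 CPM with αPD-1 against 1009.9, 896 and 1572 CPM with αPD-1 + corin (log2 fold change -0.55 ± 0.20, adjusted p = 0.0671). Melanoma cells held 2218, 1721 and 2065 CPM with αPD-1 against 2453, 1814 and 1959 CPM with αPD-1 + corin (log2 fold change 0.08 ± 0.23, adjusted p = 0.958).

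Among the co-chaperones that hand clients to Hsp70, Dnaja1 was called in the most lineages. Dnaja1 (GRCm39 chr4:40722056-40737149, plus strand) was called lower in T cells, with 505, 533 and 479 CPM with αPD-1 against 346, 287 and 404 CPM with αPD-1 + corin (log2 fold change -0.49 ± 0.15, adjusted p = 0.0328), in B cells, with 848, 1072 and 826 CPM with αPD-1 against 446, 324 and 1030.0 CPM with αPD-1 + corin (log2 fold change -0.99 ± 0.21, adjusted p = 0.000477), and in monocytes, with 603, 572 and 466 CPM with αPD-1 against 215, 214 and 380.1 CPM with αPD-1 + corin (log2 fold change -0.98 ± 0.20, adjusted p = 0.0291). The B cell groups overlapped, because replicate 3 of the αPD-1 + corin group, a sum of 12 cells, lay among the αPD-1 samples. Dnajb1 was called lower in T cells (log2 fold change -1.31 ± 0.40, adjusted p = 0.0295) and B cells (log2 fold change -1.99 ± 0.22, adjusted p = 1.13e-16), with overlap in both. Dnajb4 was called in T cells, where it measured 97.4, 98.5 and 66.7 CPM in the αPD-1 sums and 11.6, 26.9 and 48.8 CPM in the αPD-1 + corin sums (log2 fold change -1.17 ± 0.26, adjusted p = 0.00583), and was too low to be tested in neutrophils.

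Hspb1, a small heat shock protein that holds unfolded clients and binds actin (GRCm39 chr5:135916760-135918417, plus strand), showed the largest fold changes of the heat shock genes in B cells, monocytes, neutrophils and DCs, and was called in all but DCs. Monocytes had 141, 91.6 and 47.2 CPM with αPD-1 against 16.5, 6.55 and 21.4 CPM with αPD-1 + corin (log2 fold change -2.43 ± 0.40, adjusted p = 0.0107). Neutrophils had 537, 199 and 182 CPM with αPD-1 against 47.7, 48.7 and 34.7 CPM with αPD-1 + corin (log2 fold change -2.65 ± 0.40, adjusted p = 0.0113). B cells had 402, 492 and 224 CPM with αPD-1 against 0, 0 and 129 CPM with αPD-1 + corin, which is 2083 UMIs in all against 3 UMIs from the 50, 49 and 12 cells, a ratio of 0.0466 with a 95% counting interval of 0.0096 to 0.136. It passed the filter on low counts through the αPD-1 group, so its call in B cells carries no weight as a test. In the αPD-1 samples Hspb1 varied widely, from 26.4 to 90.7 CPM in T cells and from 43.4 to 192 CPM in macrophages, and neither lineage was called (log2 fold change -1.17 ± 0.43, adjusted p = 0.0696 in T cells). The chaperonin pair Hspd1 and Hspe1 was called lower in B cells alone (log2 fold change -1.65 ± 0.28, adjusted p = 1.59e-06 for Hspd1 and log2 fold change -1.61 ± 0.26, adjusted p = 3.41e-07 for Hspe1), and in T cells the groups overlapped for both.

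**Figure D2:**
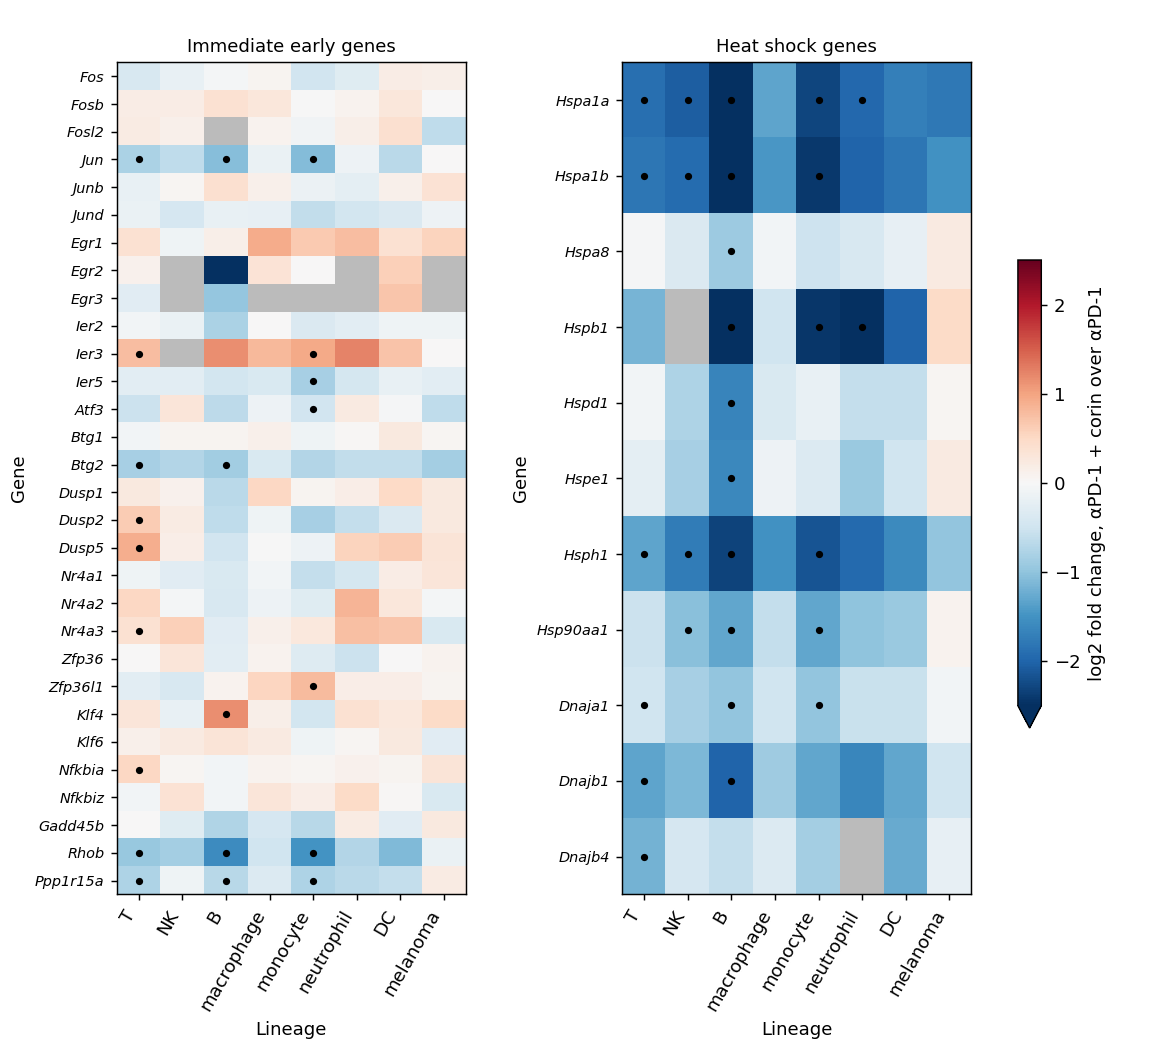
Log2 fold change of each of the 41 members (rows) in each lineage (columns), αPD-1 + corin over αPD-1, with called genes marked and untested genes left blank. The heat shock rows are lower in nearly all immune columns and nearer to 0 in melanoma cells except for Hspa1a, Hspa1b and Hsph1, while the immediate early rows hold both directions.

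Counted by lineage, in T cells 6 of 11 heat shock genes were called lower and none higher, with a median log2 fold change over the 11 of -1.17; of all genes tested in T cells, 12.8% were called lower. DESeq2 called 2 of 11 in T cells. In NK cells 4 of 10 tested were called lower (median -0.94; 0.419% of all genes lower), and in B cells 10 of 11, or 9 of 10 without Hspb1 (median -1.65; 1.54% of all genes lower); DESeq2 called 1 in NK cells and 5 in B cells. Monocytes had 6 of 11 lower (median -1.29; 0.587% of all genes lower), and neutrophils 2 of 10 (median -1.32; 0.637% of all genes lower), where DESeq2 called 6 and 5. The median over all genes tested lay between -0.17 (B cells) and 0.02 (neutrophils). In macrophages edgeR called 0 of 11 (median -0.50), where 0.0688% of all genes were called in either direction; 7 of the 11 had an unadjusted p under 0.05, DESeq2 called 3, and 8 did not overlap between groups. In DCs edgeR called 0 of 11 (median -1.26; 0.34% of all genes called), 10 had an unadjusted p under 0.05, DESeq2 called 2 and 7 did not overlap. In melanoma cells edgeR called 0 of 11 (median -0.08; 0.0% of all genes called), 3 had an unadjusted p under 0.05 and DESeq2 called 0. Over all genes tested, DESeq2 called 12.6% in T cells, 0.628% in NK cells, 1.79% in B cells, 1.94% in macrophages, 1.61% in monocytes, 2.14% in neutrophils, 0.712% in DCs and 0.0317% in melanoma cells. An unadjusted p under 0.05 was reached by 34.9% of all genes in T cells, 11.6% in NK cells, 13.9% in B cells, 17.3% in macrophages, 16.9% in monocytes, 13.5% in neutrophils, 11.1% in DCs and 7.26% in melanoma cells. With samples left out in turn, Dnaja1 lost its T cell and monocyte calls in 5 of 6 fits and its B cell call in 4, Dnajb1 its T cell call in 4, Hspa1a its neutrophil call in 5 and its monocyte call in 3, and Hspb1 its monocyte and neutrophil calls, Hspa1b its monocyte call and Hspa8 its B cell call in 3 each; all 4 NK cell calls were lost in 1, without αPD-1 replicate 2.

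Without αPD-1 + corin replicate 3, the comparison of 3 αPD-1 samples with 2 called more heat shock genes in most lineages, all lower: 8 of 11 in T cells (13.3% of all genes called in either direction), 9 of 10 in NK cells (1.78%), 10 of 11 in B cells (0.768%), 8 of 11 in macrophages (20.8%), 9 of 11 in monocytes (7.25%), 6 of 10 in neutrophils (4.8%), 10 of 11 in DCs (2.78%) and 2 of 11 in melanoma cells (0.0791%). The share of all genes called was lower than with all samples in T cells and B cells and higher in the other 6 lineages.

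**Figure D3:**
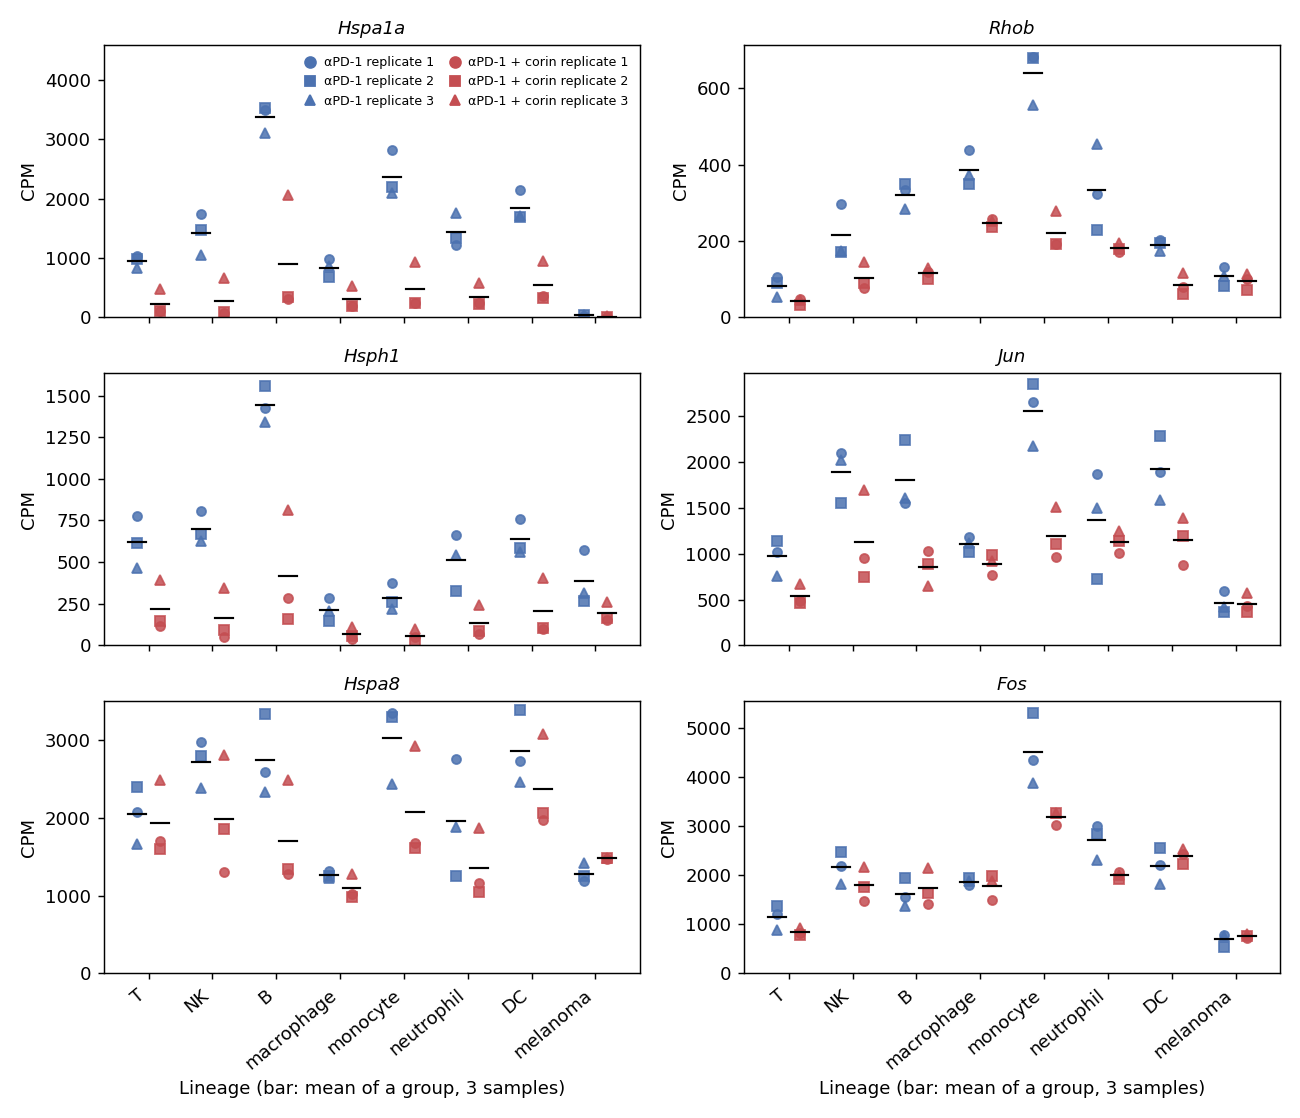
CPM of Hspa1a, Rhob, Hsph1, Jun, Hspa8 and Fos in each sample and lineage. Points are samples, coloured by group. Hspa1a and Hsph1 separate the groups in every lineage, Jun separates them in T cells, B cells, monocytes, macrophages and DCs, and Hspa8 and Fos overlap in most.

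The immediate early genes moved in both directions. Jun, the AP-1 subunit that pairs with Fos (GRCm39 chr4:94937271-94940459, minus strand), was called lower in T cells, B cells and monocytes. T cells had 1019, 1139.9 and 761 CPM with αPD-1 against 486, 459 and 669 CPM with αPD-1 + corin (log2 fold change -0.79 ± 0.19, adjusted p = 0.00837). B cells had 1552, 2246 and 1603 CPM with αPD-1 against 1025, 882 and 644 CPM with αPD-1 + corin (log2 fold change -1.07 ± 0.19, adjusted p = 4.81e-06), and monocytes 2651, 2851 and 2174 CPM with αPD-1 against 965, 1105 and 1509 CPM with αPD-1 + corin (log2 fold change -1.08 ± 0.16, adjusted p = 0.00523). In each the groups lay apart. Macrophages held 1179.8, 1016 and 1114 CPM with αPD-1 against 772, 983 and 922 CPM with αPD-1 + corin, not called (log2 fold change -0.16 ± 0.15, adjusted p = 0.569), and DCs 1887, 2287 and 1584 CPM with αPD-1 against 880.0, 1191 and 1388 CPM with αPD-1 + corin (log2 fold change -0.68 ± 0.17, adjusted p = 0.186). Fos (GRCm39 chr12:85520658-85524047, plus strand) was called in no lineage. In T cells Fos measured 1204, 1366 and 891 CPM in the αPD-1 sums and 832, 788 and 924 CPM in the αPD-1 + corin sums (log2 fold change -0.40 ± 0.16, adjusted p = 0.0991), and in macrophages 1792, 1932 and 1875 CPM in the αPD-1 sums and 1491, 1973 and 1873 CPM in the αPD-1 + corin sums (log2 fold change 0.07 ± 0.15, adjusted p = 0.823). The groups overlapped in both.

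Rhob, a small GTPase of the endosome and cytoskeleton that is transcribed as an immediate early gene (GRCm39 chr12:8547661-8550009, minus strand), was called lower in the same lineages as Jun. T cells had 105, 90.1 and 52.9 CPM with αPD-1 against 46.6, 31.7 and 46.0 CPM with αPD-1 + corin (log2 fold change -0.96 ± 0.23, adjusted p = 0.0102). B cells had 332, 349 and 282 CPM with αPD-1 against 119, 101 and 129 CPM with αPD-1 + corin (log2 fold change -1.57 ± 0.31, adjusted p = 0.000129). Those αPD-1 + corin sums held 67302, 89547 and 23300 UMIs over all genes, so Rhob rested on few UMIs there. Monocytes had 682, 679.6 and 556 CPM with αPD-1 against 193, 192 and 279 CPM with αPD-1 + corin (log2 fold change -1.498 ± 0.16, adjusted p = 0.000856), and macrophages, not called, 438, 349 and 372 CPM with αPD-1 against 256, 236 and 251 CPM with αPD-1 + corin (log2 fold change -0.50 ± 0.14, adjusted p = 0.174). Its groups did not overlap in any of the 7 immune lineages and overlapped in melanoma cells.

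Ppp1r15a (GADD34), the phosphatase subunit that restores translation after stress by acting on eIF2α (GRCm39 chr7:45172340-45175692, minus strand), was called lower in T cells, with 686, 813 and 511 CPM with αPD-1 against 285, 399.8 and 436 CPM with αPD-1 + corin (log2 fold change -0.77 ± 0.19, adjusted p = 0.0109), in B cells, with 1389, 1683 and 1244 CPM with αPD-1 against 817, 1016 and 901 CPM with αPD-1 + corin (log2 fold change -0.70 ± 0.18, adjusted p = 0.0146), and in monocytes, with 1039, 916 and 829.8 CPM with αPD-1 against 442, 476 and 692 CPM with αPD-1 + corin (log2 fold change -0.77 ± 0.16, adjusted p = 0.0327). Btg2, an antiproliferative gene that recruits the deadenylase CCR4-NOT (GRCm39 chr1:134002908-134015033, minus strand), was called lower in T cells, with 381, 333 and 247 CPM with αPD-1 against 198, 134 and 194 CPM with αPD-1 + corin (log2 fold change -0.84 ± 0.19, adjusted p = 0.00627), and in B cells (log2 fold change -0.87 ± 0.23, adjusted p = 0.0146). Both genes carry the cyclic AMP response element printed above, as does Dusp1, which was called in no lineage and had point estimates above 0 in 7 of 8. The groups did not overlap for either gene in T cells, B cells, monocytes, neutrophils and DCs. Atf3 and Ier5 were called lower in monocytes, with 1899, 1877 and 1665 CPM with αPD-1 against 1255, 1238 and 1377 CPM with αPD-1 + corin for Atf3 (log2 fold change -0.47 ± 0.10, adjusted p = 0.0406) and 849, 887 and 674 CPM with αPD-1 against 356, 391 and 593 CPM with αPD-1 + corin for Ier5 (log2 fold change -0.82 ± 0.18, adjusted p = 0.0401).

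Other members were higher with αPD-1 + corin. Dusp5, a nuclear phosphatase of ERK (GRCm39 chr19:53517532-53530862, plus strand), was called higher in T cells, with 125, 135 and 113 CPM with αPD-1 against 224, 260.5 and 197 CPM with αPD-1 + corin (log2 fold change 0.90 ± 0.14, adjusted p = 0.00054), and was not called in macrophages, with 78.0, 49.6 and 62.5 CPM with αPD-1 against 57.8, 59.4 and 53.6 CPM with αPD-1 + corin (log2 fold change -0.01 ± 0.17, adjusted p = 0.988). Dusp2, another MAP kinase phosphatase of lymphocytes, was called higher in T cells, with 367, 418 and 293 CPM with αPD-1 against 599.5, 440.2 and 586 CPM with αPD-1 + corin (log2 fold change 0.63 ± 0.17, adjusted p = 0.017). The third family member in the list, Dusp1, was not called: T cells held 382, 402 and 295 CPM with αPD-1 against 457, 408 and 391 CPM with αPD-1 + corin (log2 fold change 0.25 ± 0.15, adjusted p = 0.247) and macrophages 832, 785 and 936 CPM with αPD-1 against 1009, 1260.3 and 1048 CPM with αPD-1 + corin (log2 fold change 0.52 ± 0.15, adjusted p = 0.178), the latter without overlap. Nfkbia, the inhibitor of NF-κB that is itself an NF-κB target (GRCm39 chr12:55535332-55539432, minus strand), was called higher in T cells, with 875, 956 and 628 CPM with αPD-1 against 1179, 1204 and 1041 CPM with αPD-1 + corin (log2 fold change 0.51 ± 0.16, adjusted p = 0.032). Nr4a3, an orphan nuclear receptor induced by T cell receptor signals, was called higher in T cells with an adjusted p just inside the threshold (log2 fold change 0.38 ± 0.13, adjusted p = 0.0482). In T cells the groups did not overlap for Dusp5, Dusp2, Nfkbia and Nr4a3.

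Ier3, an early response gene linked to cell survival (GRCm39 chr17:36132568-36133815, plus strand), was called higher in T cells and monocytes and had a log2 fold change of 0.00 to 1.23 over the 7 lineages where it was tested. T cells had 58.8, 41.6 and 32.4 CPM with αPD-1 against 81.5, 79.96 and 67.3 CPM with αPD-1 + corin (log2 fold change 0.77 ± 0.19, adjusted p = 0.0104). Monocytes had 439, 412 and 416 CPM with αPD-1 against 963, 871 and 579 CPM with αPD-1 + corin (log2 fold change 0.94 ± 0.16, adjusted p = 0.013). Macrophages, not called, had 483, 298 and 354 CPM with αPD-1 against 609.7, 689.6 and 510.2 CPM with αPD-1 + corin (log2 fold change 0.82 ± 0.21, adjusted p = 0.145). In these 3 lineages each αPD-1 + corin sample was above each αPD-1 sample. Zfp36l1 was called higher in monocytes, with 144, 144 and 183 CPM with αPD-1 against 324, 301 and 197 CPM with αPD-1 + corin (log2 fold change 0.80 ± 0.18, adjusted p = 0.0489), and Klf4, a Krüppel-like factor tied to quiescence (GRCm39 chr4:55527139-55532528, minus strand), in B cells, with 111, 178 and 124 CPM with αPD-1 against 267, 391 and 215 CPM with αPD-1 + corin (log2 fold change 1.17 ± 0.25, adjusted p = 0.000588).

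By lineage, T cells had 5 immediate early genes called higher (Dusp5, Ier3, Dusp2, Nfkbia and Nr4a3) and 4 lower (Jun, Btg2, Rhob and Ppp1r15a) of 30, against 8.48% of all genes higher and 21.2% called in either direction. B cells had 1 higher and 4 lower (Jun, Btg2, Rhob and Ppp1r15a) of 29 (0.503% of all genes higher, 2.05% in either direction). Monocytes had 2 higher and 5 lower of 29 (0.906% of all genes higher, 1.49% in either direction). The T cell count of 9 of 30 is not far above the share of all genes called there. DESeq2 called 8 in T cells, 5 in B cells and 12 in monocytes, to be read, like the counts that follow, against the shares of all genes given above for DESeq2 and for the unadjusted p. With samples left out in turn, Nr4a3 lost its T cell call in 6 of 6 fits, Nfkbia in 4 and Dusp2 in 3, Klf4 and Ppp1r15a lost their B cell calls in 4, Atf3, Ier5, Zfp36l1 and Ppp1r15a lost their monocyte calls in 5, and Ier3 its monocyte call in 4. In NK cells edgeR called 0 of 27 (0.663% of all genes), 5 had an unadjusted p under 0.05 and DESeq2 called 0. In macrophages edgeR called 0 of 29, 5 had an unadjusted p under 0.05, which is near the 17.3% of all genes, and DESeq2 called 2, both higher. In neutrophils edgeR called 0 of 28 (0.943% of all genes), 6 had an unadjusted p under 0.05 and DESeq2 called 1. In DCs edgeR called 0 of 30, 12 had an unadjusted p under 0.05 and DESeq2 called 2. In melanoma cells edgeR called 0 of 28, 2 had an unadjusted p under 0.05, near the 7.26% of all genes, and DESeq2 called 0. The medians over the immediate early genes were -0.02 in T cells, 0.08 in macrophages, -0.31 in monocytes and -0.38 in B cells on the log2 scale.

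The remaining immediate early genes were called in no lineage with all samples in the fit. Egr1, a zinc finger factor induced within minutes of mitogen signals, had point estimates above 0 in 7 of 8 lineages with a median log2 fold change of 0.47, and the MAP kinase phosphatase Dusp1 in 7 of 8 with a median of 0.21. The AP-1 subunits did not share a sign. Jund lay below 0 in 8 of 8 lineages (median log2 fold change -0.28), Fosb above 0 in 7 of 8 (0.18), and Fos and Junb lay on both sides (medians -0.12 and 0.09). Ier2 lay below 0 in 7 of 8 lineages (median -0.14) and Klf6 and Btg1 above 0 in 6 of 8 (0.17 and 0.06). The medians of Nr4a1, Nr4a2, Gadd45b, Nfkbiz and Zfp36, with estimates on both sides of 0, were -0.20, -0.05, -0.30, 0.10 and 0.01. Fosl2 was tested in 7 lineages, Egr2 in 5 and Egr3 in 3, with medians of 0.12, 0.11 and -0.28. None of these values passed the test, and they are given as point estimates.

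Without αPD-1 + corin replicate 3, the counts were 8 of 30 in T cells (5 lower and 3 higher), 4 of 27 in NK cells (all lower), 2 of 29 in B cells (both lower), 11 of 29 in macrophages (7 lower and 4 higher), 15 of 29 in monocytes (12 lower and 3 higher), 1 of 28 in neutrophils, 9 of 30 in DCs (5 lower and 4 higher) and 0 of 28 in melanoma cells, to be read against the shares of all genes given above for the same samples.

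Across lineages, over all 6 samples, the immediate early sum was highest in neutrophils (24443 ± 3242 CPM) and monocytes (23241 ± 3946 CPM), which did not differ beyond their spread, and the NK cell samples overlapped with the monocyte samples. NK cells (16789 ± 2646 CPM), B cells (16489 ± 2097 CPM) and DCs (15947 ± 1268 CPM) followed within each other's spread, then macrophages (12912 ± 1125 CPM), without overlap with DCs, and T cells (10364 ± 1358 CPM), which overlapped with macrophages over all samples but not within either group. Melanoma cells were the lowest (3454 ± 418 CPM), below each sample of every other lineage. The heat shock order is given for each group, since the groups differed. With αPD-1, B cells were the highest (17388 ± 2160.1 CPM), without overlap with the next lineage. DCs (10918 ± 1478 CPM), NK cells (10870.4 ± 1684 CPM), monocytes (10247 ± 1748 CPM), neutrophils (8715 ± 1689.6 CPM) and T cells (8147 ± 1339 CPM) followed, each overlapping with its neighbours, then melanoma cells (5713 ± 717 CPM), below T cells without overlap, and macrophages (4713 ± 602 CPM). With αPD-1 + corin, melanoma cells (5691 ± 449 CPM) stood next to B cells (7059 ± 5042 CPM) and above DCs (5615 ± 2341 CPM), macrophages were again the lowest (2804 ± 747 CPM), and all neighbours in the order overlapped. Hspa8 and Hsp90aa1 gave 30.6% and 22.5% of the heat shock UMIs in T cells. In melanoma cells Hsp90aa1 gave 35.7%, Hspa8 24.3% and Hspd1 14.7%, so the sum there held little of the inducible Hsp70 genes. Single genes peaked in different lineages, Fos in monocytes (3844 ± 864 CPM), Egr1 in neutrophils (917 ± 374 CPM), Jund in B cells (1974 ± 386 CPM) and Atf3 in monocytes (1552 ± 302 CPM), each without overlap with the next lineage.

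Whether the change differed between macrophages and T cells was tested as an interaction in 1 edgeR model over both lineages, so the difference given is that of the joint model, while each lineage's log2 fold change is that of its own fit. The difference was called for 3 of 41 members tested, against 3.81% of all genes tested. For Dusp5 the log2 fold change was -0.01 in macrophages and 0.90 in T cells (difference -0.91 ± 0.22, adjusted p = 0.0214). For Dnajb4 it was -0.35 in macrophages and -1.17 in T cells (difference 1.06 ± 0.24, adjusted p = 0.0145). In macrophages Dnajb4 measured 41.4, 42.8 and 35.4 CPM in the αPD-1 sums and 21.7, 24.8 and 40.1 CPM in the αPD-1 + corin sums. For Zfp36l1 it was 0.53 in macrophages and -0.27 in T cells (difference 0.76 ± 0.20, adjusted p = 0.0381), and neither value was called on its own. For Hspa1a the difference missed the threshold (0.93 ± 0.27, adjusted p = 0.0556). No member was called in the same test between macrophages and melanoma cells, where 0.0162% of all genes were called and 681 genes had an unadjusted p under 0.05, so the different heat shock sums of the immune lineages and of melanoma cells are a description and not a tested difference.

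Within lineages, the lower heat shock sum was present in most clusters of cells. Clusters were made without the 41 members, and those with at least 10 cells in every sample are compared. In macrophages the ratio of αPD-1 + corin to αPD-1 was 0.524 in the MHC class II cluster (H2-Ab1, Cxcl9), 0.654 in the Mmp12 and Arg1 cluster, 0.622 in the Negr1 and Aoah cluster, each without overlap between groups, and 0.634 in the Camk1d and Gphn cluster and 0.714 in the Lyve1 and Folr2 cluster, where the groups overlapped. In T cells it was 0.597 in the Foxp3 cluster, 0.523 in the Klra6 and Cd160 cluster, 0.635 in the Ccl5 and Gzmk cluster, and 0.734 in the cycling cluster led by histone genes. Of these, the Foxp3 cluster was without overlap, at 8671 CPM against 5178 CPM. The cycling T cells were the immune cluster whose immediate early sum was higher with αPD-1 + corin without overlap, 1.36 times. Both DC clusters were lower without overlap, 0.424 in the Siglech cluster and 0.544 in the Ccl22 and Xcr1 cluster. Melanoma clusters stood at 0.805, 0.883 and 1.08, each with overlap. The makeup of a lineage also differed between samples: 1097 of the 1404 cells of the Ppbp and Ccl24 macrophage cluster came from αPD-1 + corin replicate 1, 448 of the 2581 αPD-1 B cells but 2 of the 111 B cells with αPD-1 + corin lay in the Malat1-rich B cell cluster, and 439 of the 672 cells of the Ccl5 and Gzmk T cell cluster from replicate 3.

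**Figure D4:**
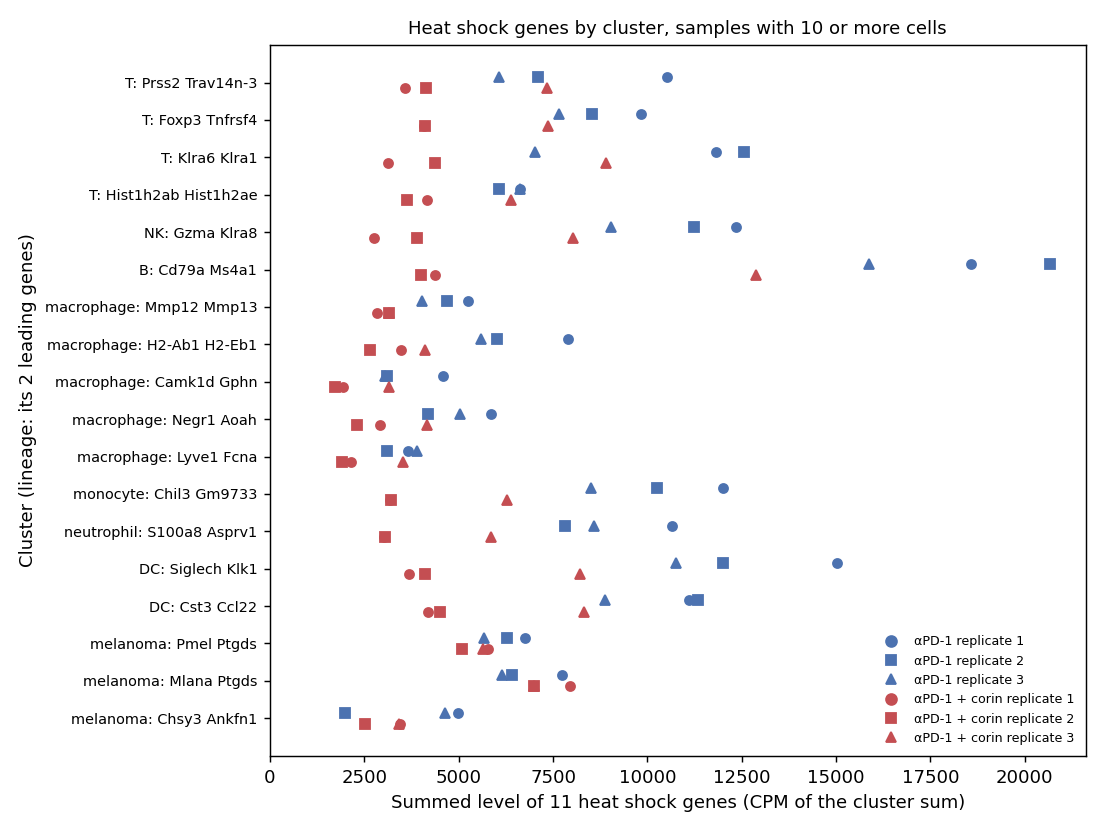
Summed heat shock CPM per sample in each cluster with at least 10 cells in all 6 samples, clusters named by lineage and leading genes; points are samples. The αPD-1 + corin points lie lower in most immune clusters and are mixed with the αPD-1 points in the 3 melanoma clusters.

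The decrease was also seen as fewer cells with any UMI of the gene. Each cell was thinned to 1000 UMIs, shallower cells being left out, so that depth was equal. The share of cells with an Hspa1a UMI was 44.8% ± 5.67 with αPD-1 and 15.5% ± 12.1 with αPD-1 + corin in T cells (unthinned, 59.99% ± 6.15 with αPD-1 and 26.1% ± 18.8 with αPD-1 + corin). In macrophages it was 40.8% ± 6.26 with αPD-1 and 20.1% ± 10.9 with αPD-1 + corin (unthinned, 62.8% ± 5.05 with αPD-1 and 39.1% ± 12.4 with αPD-1 + corin). Monocytes went from 72.03% to 28.3%, B cells from 78.0% to 25.4%, and DCs from 66.7% to 30.1%. No lineage is known to lack the gene; the lowest share, in melanoma cells, was 3.61% ± 0.196 with αPD-1 and 1.00% ± 0.216 with αPD-1 + corin, well under the immune shares. Fos in macrophages, 61.9% ± 1.55 with αPD-1 and 62.5% ± 2.73 with αPD-1 + corin, and Hspa8 in T cells, 73.7% ± 6.49 with αPD-1 and 79.2% ± 6.83 with αPD-1 + corin, differed less between the group means than Hspa1a did.

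In 39 of 40 sums compared, a larger share of cells with Fos than of cells without it held an inducible Hsp70 gene; in NK cells of αPD-1 + corin replicate 2 the order was the other way (8.82% with Fos and 11.8% without), and in DCs of that sample the shares were near each other (28.7% and 28.0%). In thinned T cells of the αPD-1 samples, Hspa1a or Hspa1b was present in 74.5, 70.4 and 64.3% of cells with a Fos UMI and in 57.3, 53.1 and 44.1% of cells without. In macrophages of the same samples the shares were 64.2, 54.9 and 60.6% with Fos and 49.4, 28.5 and 33.5% without. With αPD-1 + corin, macrophages held 20.4, 19.2 and 48.5% with Fos and 17.6, 14.8 and 31.0% without. The cells of a sample share a library, and these shares are descriptions.

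**Figure D5:**
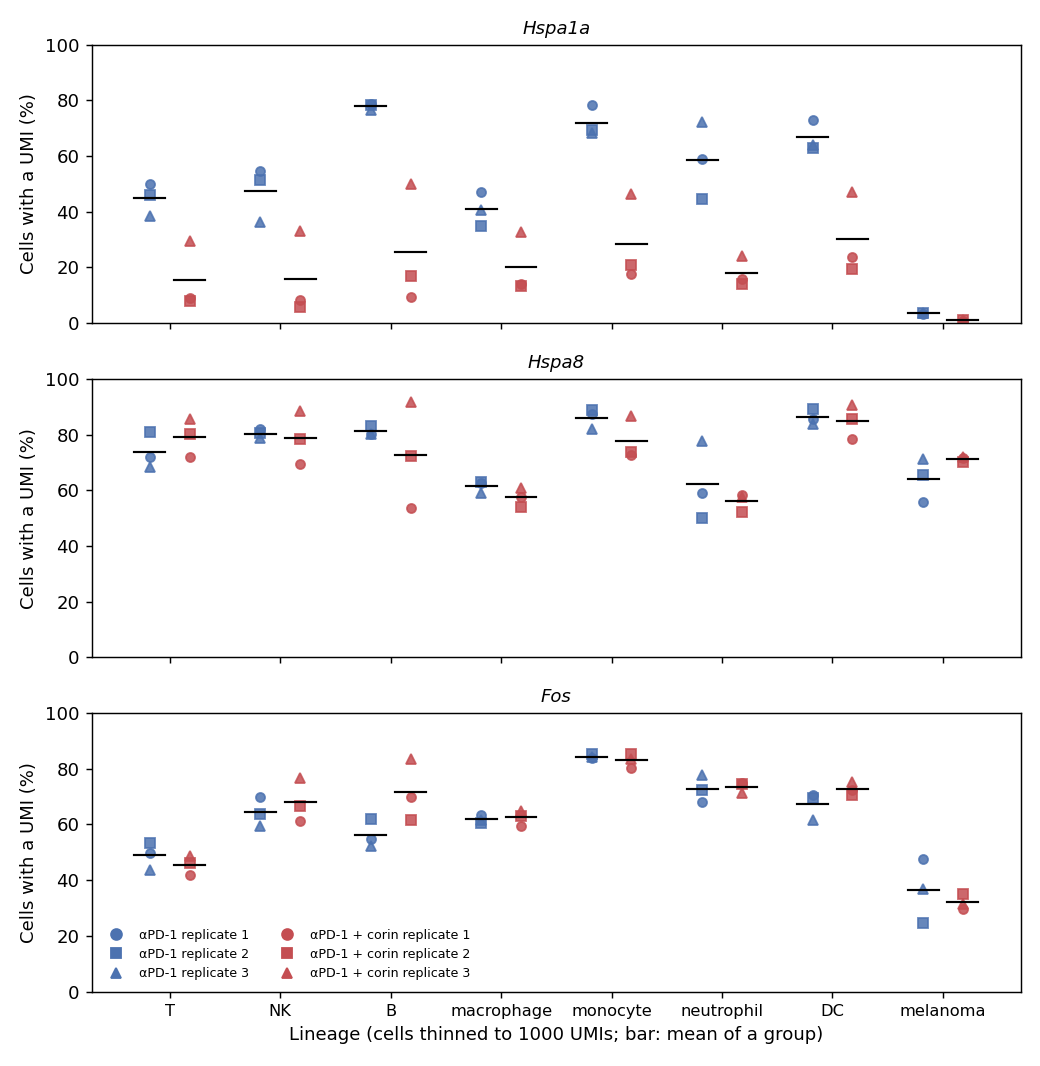
Percent of cells with at least 1 UMI of Hspa1a, Hspa8 and Fos after thinning to 1000 UMIs per cell, by lineage; points are samples. The Hspa1a points separate by group in every lineage, while the Hspa8 and Fos points of the groups overlap in most lineages.

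Over the 48 sums of sample and lineage, the genes whose log2 CPM followed the immediate early sum most closely among 6797 compared were Zfp36 (r = 0.971), Ier5 (0.965), Irak2 (0.946), Btg1 (0.941) and Nfkbia (0.939), of which Irak2, an adaptor of Toll-like receptor signals, is no member. The heat shock sum was followed by Dnaja1 (0.926), Hsph1 (0.915), Hsp90aa1 (0.895), Dnajb1 (0.894) and Hspa1b (0.813), all members. The points share libraries and members enter their own sum, so these are descriptions.

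Genes upstream and downstream of the members gave a mixed picture. The T cell counts are to be read against all genes tested there, of which 8.48% were called higher and 12.8% lower. In T cells, of 43 other immediate early and feedback genes tested, 8 were called higher and 7 lower, among them Bhlhe40 (1.04 ± 0.15, adjusted p = 0.000391), a factor of activated T cells, and Id3 (-1.95 ± 0.18, adjusted p = 1.54e-05) and Klf2 (-1.27 ± 0.19, adjusted p = 0.000416), regulators of resting T cells. Of 25 kinases and factors upstream of them, 3 were higher and 5 lower, among the latter Mapk8 (-1.30 ± 0.23, adjusted p = 0.00173), which encodes JNK1, and Elk4 (-0.98 ± 0.17, adjusted p = 0.00125), an SRF partner. Of 38 genes tested from a list of heat shock factors, other chaperones, co-chaperones and HSF1 targets, 1 was higher, Hsp90b1 (0.48 ± 0.13, adjusted p = 0.019). In the same list 2 were lower, Dnajb2 (-0.90 ± 0.30, adjusted p = 0.042) and Dnaja4 (-0.84 ± 0.24, adjusted p = 0.0213). Of 25 genes of the unfolded protein response of the endoplasmic reticulum, a stress pathway apart from HSF1, 5 were higher and 1 lower, with Asns (1.57 ± 0.37, adjusted p = 0.00849) and Sdf2l1 (0.94 ± 0.17, adjusted p = 0.00196) higher and Dnajb9 (-0.69 ± 0.17, adjusted p = 0.00995) lower. The values in parentheses are log2 fold changes. Id3 was among the leading genes of the Igfbp4, Dapl1 and Ccr7 cluster and of the Klra6 and Cd160 cluster. The former, with the Auts2 cluster, held 1038 of the 2161 T cells with αPD-1 and 38 of the 1597 with αPD-1 + corin. The part of this makeup in these T cell values was not tested.

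In macrophages edgeR called 0 of the 44, 26, 40 and 26 genes tested in those 4 lists, of which 6, 3, 1 and 5 had an unadjusted p under 0.05, and DESeq2 called 0, 0, 1 and 1. Of all genes tested there, edgeR called 0.0688%, 17.3% had an unadjusted p under 0.05 and DESeq2 called 1.94%. The lowest p in the list of chaperones and HSF1 targets belonged to Bag3 (-1.06 ± 0.34, adjusted p = 0.201), an Hsp70 co-chaperone. In the unfolded protein response it belonged to Eif2ak3 (-0.92 ± 0.14, adjusted p = 0.0596), the endoplasmic reticulum kinase PERK. From the list of chaperones and HSF1 targets, 1 of 24 genes tested was called lower in NK cells (0.419% of all genes lower). The counts were 2 of 36 in B cells (1.54%) and 1 of 36 in monocytes (0.587%).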

How the data were processed

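Single-cell 5' RNA-seq libraries (about 23000 cells loaded each) of 3 αPD-1 and 3 αPD-1 + corin samples were deposited by the authors as raw UMI counts per gene and cell barcode, made with Cell Ranger 8.0 against GRCm39; the submitters' processing notes also name Seurat. Each molecule is counted once by its UMI, and the deposited counts were not normalized by the authors. Of 52899 barcodes, the 2002 with the highest Scrublet scores were removed as doublets, at a rate of 0.4% per 1000 cells, because its automatic threshold marked 0, and those with between 600 and 4000 genes and no more than 10% of UMIs from mitochondria were kept, which left 28865 cells. Clusters (Seurat 5.3.0, sctransform 0.4.2, 20 components, resolution 0.8, 2929 variable genes without the members and related lists) were named from markers, and 4437 cells in mixed or other clusters were left out. UMIs were summed per sample and lineage (at least 10 cells per sample) and tested with edgeR 4.0.16 (TMM, filterByExpr, quasi-likelihood test, Benjamini-Hochberg over all genes tested); DESeq2 1.42.0, other filters, clusterings and left-out samples were alternatives. The code was tested on simulated data. Named genes were those with the largest absolute log2 fold change among the members called in each lineage (up to 3 immediate early and 2 heat shock), those called the same way in at least 3 lineages, and Fos, Jun, Dusp1, Hspa1a, Hspa1b and Hspa8 in T cells and macrophages; the others named in the report were chosen after their values were seen. The study's own comparison was made over cells; here samples are the replicates. Members and lists were chosen with earlier results of these data known.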

Additional observations from a re-analysis of the deposited data

Results flagged for a closer look

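The change with αPD-1 + corin differed between macrophages and T cells for 3 of 41 members tested by a test of the difference itself, against 3.81% of all genes. For Dusp5, a MAP kinase phosphatase, the difference of the log2 fold changes (macrophages minus T cells) was -0.91 ± 0.22 (edgeR interaction, adjusted p = 0.0214), and it lay between -1.18 and -0.70 with each sample left out in turn. For Zfp36l1, an mRNA decay factor, the difference of the log2 fold changes (macrophages minus T cells) was 0.76 ± 0.20 (edgeR interaction, adjusted p = 0.0381), and it lay between 0.64 and 0.95 with each sample left out in turn. For Dnajb4, an Hsp70 co-chaperone, the difference of the log2 fold changes (macrophages minus T cells) was 1.06 ± 0.24 (edgeR interaction, adjusted p = 0.0145), and it lay between 0.93 and 1.35 with each sample left out in turn. The calls were lost with 3 of 6 samples left out for Dusp5 and Zfp36l1 and with 1 of 6 for Dnajb4. Macrophages and T cells of a sample share a library, and the model held the sample as a block.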

How the results depend on the processing

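No gene called in the main fit changed direction under any alternative run. Of the 210 counts of called genes recomputed without leaving out a sample, 49 moved by more than 1.5 times or moved to or from 0. Of 747 values of named genes from the same alternatives, 78 fell short of the threshold passed in the main fit. With samples left out, 102 of 366 values did so. Both totals include named genes that were not called in the main fit and had no call to lose. The cause was not tested. The numbers of called genes in the main fit stand in the report, and the percent of all genes called under the same setting stands once beside each lineage. In DESeq2, immediate early genes called numbered 2 in macrophages (1.94%), 12 in monocytes (1.61%), 1 in neutrophils (2.14%) and 2 in DCs (0.712%) and heat shock genes called numbered 2 in T cells (12.6%), 1 in NK cells (0.628%), 5 in B cells (1.79%), 3 in macrophages, 5 in neutrophils and 2 in DCs. With no filter on low counts, immediate early genes called numbered 9 in B cells (1.09%), 2 in macrophages (3.78%), 15 in monocytes (3.29%), 2 in neutrophils (1.56%) and 8 in DCs (2.61%) and heat shock genes called numbered 4 in macrophages, 5 in neutrophils, 9 in DCs, 3 in melanoma cells (0.549%) and 2 in the macrophage-to-T-cell difference (2.55%). With the replicate block, immediate early genes called numbered 1 in NK cells (0.943%), 3 in B cells (0.883%), 3 in monocytes (0.612%) and 1 in neutrophils (1.12%) and heat shock genes called numbered 4 in neutrophils. At a cluster resolution of 0.4, immediate early genes called numbered 3 in B cells (0.839%) and 5 in DCs (0.894%) and heat shock genes called numbered 5 in DCs. At a cluster resolution of 1.2, immediate early genes called numbered 4 in monocytes (1.08%) and 1 in DCs (0.425%) and heat shock genes called numbered 1 in DCs. With the upper gene limit lifted, immediate early genes called numbered 5 in T cells (6.88%), 4 in monocytes (1.36%) and 2 in DCs (1.2%) and heat shock genes called numbered 4 in DCs. With a lower limit of 200 genes per cell, immediate early genes called numbered 3 in neutrophils (8.15%) and 1 in DCs (0.312%) and heat shock genes called numbered 5 in neutrophils. With the members kept in the variable genes, immediate early genes called numbered 1 in B cells (0.208%) and 1 in DCs (0.358%) and heat shock genes called numbered 5 in B cells. With equal numbers of cells, immediate early genes called numbered 2 in B cells (3.13%), 4 in monocytes (1.63%) and 1 in DCs (0.414%) and heat shock genes called numbered 0 in B cells, 1 in neutrophils (1.69%) and 1 in DCs. Leaving out clusters with much Malat1 and little Actb, an alternative chosen after seeing the data, immediate early genes called numbered 9 in B cells (1.57%) and 1 in neutrophils (1.13%). All other counts stayed within 1.5 times of the main count. The samples of the same number were not paired by the labels, and their deviations from the group means correlated between -0.183 and 0.101, and not every sample correlated best with its own number, so the numbers were not taken as pairs.

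With each sample left out in turn, immediate early genes called ranged over 5 to 11 in T cells, 0 to 4 in NK cells, 2 to 5 in B cells, 0 to 11 in macrophages, 1 to 15 in monocytes, 0 to 1 in neutrophils, 0 to 9 in DCs, 0 in melanoma cells, 0 to 8 in the macrophage-to-T-cell difference and 0 in the macrophage-to-melanoma difference, and heat shock genes called over 3 to 8 in T cells, 0 to 9 in NK cells, 6 to 10 in B cells, 0 to 8 in macrophages, 2 to 9 in monocytes, 0 to 6 in neutrophils, 0 to 10 in DCs, 0 to 2 in melanoma cells, 0 to 5 in the macrophage-to-T-cell difference and 0 in the macrophage-to-melanoma difference. These ranges are to be read against the share of all genes called in the same fits. It ranged over 11.1 to 21.4% in T cells, 0.157 to 1.78% in NK cells and 0.716 to 6.34% in B cells. Macrophages had 0 to 20.8%, monocytes 0.184 to 7.25%, neutrophils 0 to 4.8%, DCs 0.108 to 2.78% and melanoma cells 0 to 0.0791%. The macrophage-to-T-cell difference had 1.86 to 5.63% and the macrophage-to-melanoma difference 0 to 0.578%. The lowest heat shock counts included 0 in NK cells without αPD-1 replicate 2, and the highest counts in macrophages, DCs and monocytes were those without αPD-1 + corin replicate 3. Calls that held with every sample left out were Btg2, Dnajb4, Dusp5, Hspa1a, Hspa1b, Ier3, Jun and Ppp1r15a in T cells, Hsp90aa1, Hspa1a, Hspb1, Hspd1, Hspe1, Hsph1, Jun and Rhob in B cells and Hsp90aa1, Hsph1 and Rhob in monocytes, 19 of the 49 calls in single lineages. In B cells with αPD-1 + corin, Hspb1 rested on 3 UMIs and Rhob also on few. Each call outside these 19 was lost in at least 1 of 6. Values changed sign only for genes not called. Hspa8 in T cells, -0.03 in the main fit, lay between -0.27 and 0.14 with a sample left out and changed sign without αPD-1 replicate 2, αPD-1 + corin replicate 1 and αPD-1 + corin replicate 2 (0.11, 0.07 and 0.14); it was 0.0014 with no filter on low counts and 0.0025 at resolution 1.2. Fos in macrophages, 0.07 in the main fit, lay between -0.0020 and 0.18 with a sample left out and changed sign without αPD-1 + corin replicate 2. Hspa8 in macrophages, -0.07 in the main fit, lay between -0.18 and 0.0069 with a sample left out and changed sign without αPD-1 + corin replicate 2. The summed heat shock level in neutrophils moved to -1.88 on the log2 scale with a lower limit of 200 genes per cell, and the difference in the share of melanoma cells with an Hspa1a UMI was -3.97 percentage points when cells were not thinned. In B cells, DESeq2's size factors (RLE) in place of TMM gave 63 genes higher and 109 lower of all tested, against 41 and 126. Neutrophils gave no value with the members kept in the variable genes, with no doublet removal or at a resolution of 1.2. The interaction was refitted only with RLE, with no filter and with samples left out. Depth limits B cells with αPD-1 + corin and neutrophils with αPD-1 most, and 3 samples per group limit every test; UMI counts and intervals cover counting error only.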
